A study of Mus musculus with 7 samples.

Results

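The chromatin around 4 microRNA genes of myeloid cells, Mir142, Mir21a, Mir155 and Mir223, was described from peak lists of mouse cMoPs, common monocyte progenitors sorted from bone marrow, from which monocytes arise. The members are the distinct intervals of 5 peak lists that lie within 20 kb of these 4 genes, of 1228 microRNA genes annotated on the autosomes and X. They numbered 69 of 105707 distinct intervals in all lists. The study profiled histone H3 marks by CUTAC, an antibody-guided tagmentation assay run without salt that cuts accessible DNA beside a mark. One group of mice carried the form labelled DE of an enhancer at −165 kb from Zeb2, a gene of an E-box-binding repressor, and the other carried the WT form. H3K4me2, found at promoters and enhancers, was profiled in 2 DE and 2 WT libraries of batch 2. H3K4me3, found mainly at active promoters, was profiled in 1 WT library of batch 1. What the letters DE stand for, the strain, the age and the sex of the mice are not given in the labels, and no label says that replicates came from separate animals, so p-values measure only the spread between libraries. An IgG library and MDP cells profiled for H3K4me3 were not analysed here.

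A microRNA gene is transcribed as a long primary transcript, from which Drosha and Dicer cut a hairpin and then a short mature strand that lowers the output of matching mRNAs. Its promoter can lie several kilobases from the hairpin, so marks of promoters and enhancers are looked for in a window and not at the hairpin alone. Mir142 is used across blood cells. Mir21a lies within the Vmp1 gene and is known from proliferating and inflamed tissue, Mir155 is induced by inflammatory signals, and Mir223 is best known from granulocytes and their precursors, where C/EBP factors and PU.1 have been reported to drive it.

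The mature strands, from RefSeq on GRCm38.p6, are given to show which products the loci encode. All 4 genes matched by symbol, and capitals mark the seed, bases 2 to 8 from the 5′ end, which pairs with target mRNAs. The hairpins lie at chr11:87756864-87756927 on the plus strand (Mir142, gene ID 387160), chr11:86584067-86584158 on the minus strand (Mir21a, 387140), chr16:84714140-84714204 on the plus strand (Mir155, 387173) and chrX:96242817-96242926 on the plus strand (Mir223, 723814).
mmu-miR-142a-5p: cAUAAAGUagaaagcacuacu
mmu-miR-142a-3p: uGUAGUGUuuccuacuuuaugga
mmu-miR-21a-5p: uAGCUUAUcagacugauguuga
mmu-miR-155-5p: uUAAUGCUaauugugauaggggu
mmu-miR-223-3p: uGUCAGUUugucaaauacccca
No pair of these strands shared a seed. In the RefSeq table the seed of miR-21a-5p was also that of mmu-miR-21c, and the other 4 seeds belonged to no other mature strand. Mir142b, annotated at 87756841 to 87756955 on the minus strand, overlaps Mir142, so that peaks there cannot be given to one of them.

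The labelled cell type was checked by peaks within 1 kb of either gene end, which 45.3% and 40.7% of protein-coding genes had in DE, 48.6% and 49.7% in WT and 21% in the H3K4me3 list. Of 6 genes of the monocyte lineage, 4 were called in each DE list, 5 in each WT list and 4 in the H3K4me3 list. Cx3cr1 was called in both WT lists and neither DE list, and Ccr2 in none. All 4 granule genes (Mpo, Elane, Prtn3 and Ctsg) were called in every list. Of 20 markers of B cells, T cells, erythroid cells and mast cells or basophils, Cd79b was the one called in all 4 H3K4me2 lists, and none had an H3K4me3 call. These markers had 5 and 2 calls in DE and 2 and 3 in WT, and the erythroid gene Klf1 was called in both DE lists and neither WT list. The part of these markers in the results was not tested. How many protein-coding genes had calls in both lists of 1 genotype alone was not counted, so the patterns of Cx3cr1 and Klf1 have no background. The H3K4me2 lists held 21968 and 17079 peaks in DE replicates 1 and 2 and 32354 and 28152 in WT replicates 1 and 2, and the H3K4me3 list held 6425. The files give no read totals, so the depth is unknown.

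The 4 microRNA genes differed widely in how many peaks surrounded them. For counting, touching or overlapping H3K4me2 intervals were merged into regions, and a library was taken to call a region if any peak in its list overlapped it by 1 bp or more. Mir142 had 18 regions, Mir21a had 4, and Mir155 and Mir223 had 1 each, 24 in all. With intervals within 500 bp of each other merged as well, Mir142 had 11 regions and Mir21a had 3. The 69 intervals comprised 56 near Mir142, 10 near Mir21a, 2 near Mir223 and 1 near Mir155. Over all 1228 microRNA genes the median was 1 region, 547 had none and the highest count was 25.

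**Figure D1:**
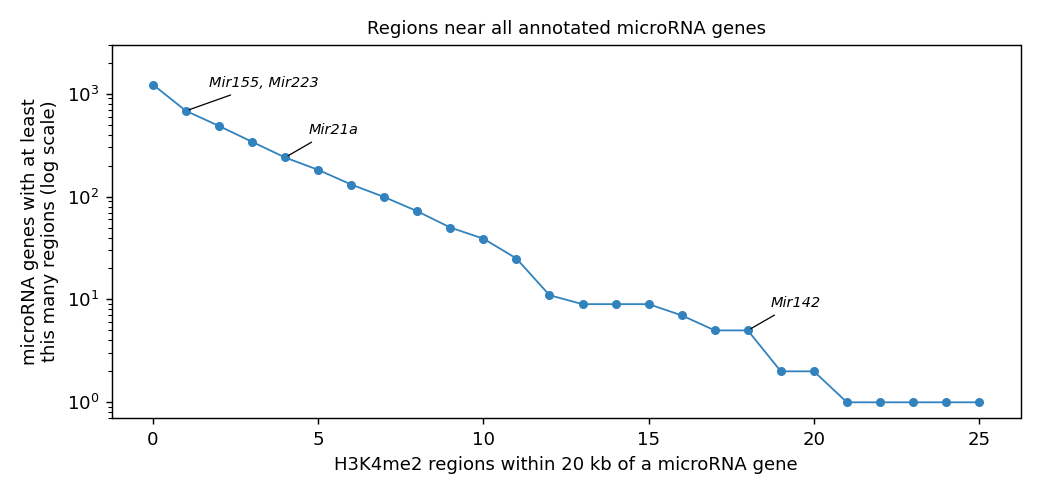
Number of microRNA genes (log axis) that had at least the number of H3K4me2 regions within 20 kb on the horizontal axis, over all 1228 annotated microRNA genes. Mir142, with 18 regions, sits near the right end, where 4 other genes had as many or more, and Mir155 and Mir223 sit at 1 region.

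As many regions as near Mir142, or more, were found near 4 other microRNA genes, namely Mir142b, which shares its place, Mir196b, Mir6546 and Mir6910. As many as near Mir21a, or more, were found near 239 others. Neighbouring microRNA genes share their windows and are not independent. A peak within 20 kb in all 4 H3K4me2 lists was found for 38.9% of the 1228 microRNA genes (478 genes, 95% Wilson interval 36.2 to 41.7, which covers counting error only), and Mir142 and Mir21a were among them, while Mir155 and Mir223 were not. Mir142 and Mir21a also had a peak in the H3K4me3 list, as 22.9% of microRNA genes had, and so in all 5 lists, as 21.7% had. No member was among the 44.5% without any H3K4me2 peak, nor was any called in both DE lists and neither WT list, a pattern of 0.0814% of microRNA genes. Within 1 kb, Mir142 had a peak in all 5 lists and the other members in none. Of all microRNA genes 9.61% and 8.96% had one in DE, 11.2% and 11.1% in WT and 3.99% for H3K4me3.

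At Mir142 most regions called in all 4 H3K4me2 lists lay upstream of the hairpin, as separate peaks. Of 10 upstream regions, 7 were called in all 4 H3K4me2 lists, against 1 of the 8 downstream regions, which all lie within Tspoap1, a gene of a synaptic scaffold protein whose lower end is 1267 bp from Mir142. Over all regions of the genome 29.7% were called in all 4 lists. The 7 upstream regions were placed 19.2 kb, 7.88 kb, 6.97 kb, 4.90 kb, 2003 bp, 1185 bp and 83 bp from the hairpin. Each DE library called 8 upstream and 3 downstream regions. WT replicate 1 called 7 upstream and 3 downstream, and WT replicate 2 called 8 and 5.

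**Figure D2:**
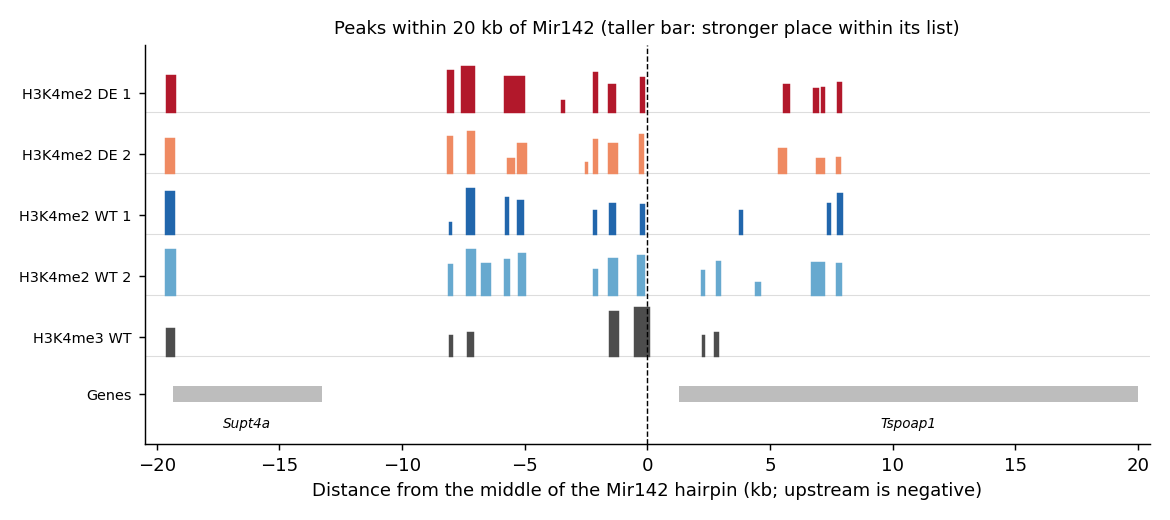
Peaks within 20 kb of Mir142 in each of the 5 lists, by distance from the middle of the hairpin in kb, drawn to scale, with taller bars for peaks of a stronger place within their own list, and gene bounds in grey. The 7 shared H3K4me2 regions upstream line up in the DE and WT libraries, and the H3K4me3 peak over the hairpin is the tallest bar of its row.

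The H3K4me3 list had its strongest peak of the locus over the hairpin itself. This interval, chr11:87756338-87756973, was 636 bp wide against a median of 167 bp in its list, began 526 bp before the hairpin and ended 46 bp after it. Its −log10 p of 46.3, the authors' value as are all strengths here, put it at 21st of 6425 peaks, in the top 0.327%. An H3K4me3 peak over the gene itself was found at 15 of the 1228 microRNA genes (1.22%). Of those peaks the one at Mir142 and Mir142b ranked after that at Mir5136. The next was at 3.98% of the list, at Mir2861.

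The H3K4me2 peaks beside the hairpin were narrower and stopped before it. They were 183 and 169 bp wide in DE replicates 1 and 2 and 152 and 295 bp in WT replicates 1 and 2, and all 4 lay inside the H3K4me3 interval. They ended 93 and 133 bp before the hairpin in DE and 114 and 83 bp before it in WT. Their places, counted as the percentage of the library's own list at which the peak stands by −log10 p, were 35.3% and 24.2% in DE and 47.4% and 23.8% in WT. None of the 4 H3K4me2 lists had a peak over the hairpin, which 4.32% and 3.42% of the microRNA genes had in DE and 3.83% and 4.32% in WT. Places in lists of different lengths show no change between libraries and are given to order the peaks within each list.

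By −log10 p, 1 H3K4me2 region near Mir142 was the strongest in DE replicates 1 and 2 and WT replicates 1 and 2 alike. It was the one at 87749282 to 87749889, 6.97 kb upstream in a stretch with no annotated gene. It stood at 8.07% and 17.2% of the DE lists and at 6.75% and 7.08% of the WT lists. Its H3K4me3 peak was weak, at 64.0%. The authors' −log10 p of its strongest summit was 25.7 and 15.5 in DE and 26.7 and 42.0 in WT. By the fold of that summit over background, it led in WT replicate 1 alone, at 14.2. The region 7.88 kb upstream led in DE replicate 1 (9.68 against 9.22). The one 83 bp from the hairpin led in DE replicate 2 (8.26 against 6.70). The one 19.2 kb upstream led in WT replicate 2 (17.8 against 14.8).

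By these places, which follow −log10 p and not fold, the order of the marks differed along the locus. The hairpin region stood at 23.8% to 47.4% of the H3K4me2 lists and 0.327% of the H3K4me3 list. The region 6.97 kb upstream stood at 6.75% to 17.2% of the H3K4me2 lists and 64.0% of the H3K4me3 list. The region 1185 bp upstream, 87755313 to 87755679, stood at 52.2% and 48.3% in DE, 44.7% and 29.9% in WT and 10.8% for H3K4me3. The region 7.88 kb upstream stood at 18.1% and 29.9% in DE and 71.1% for H3K4me3. In WT it stood at 94.5% in replicate 1, among the weakest peaks of that list, and at 45.9% in replicate 2. The regions 4.90 kb and 2003 bp upstream, at 87751046 to 87751966 and 87754688 to 87754861, had calls in all 4 H3K4me2 lists and no H3K4me3 peak. The 1 H3K4me3 library is of another batch, and a difference between marks cannot be told apart from one between batches.

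Most of the remaining regions at Mir142 were called in 1 H3K4me2 list. Of the 8 regions called in 1 list alone, DE replicates 1 and 2 held 1 each, both upstream and at 94.7% and 94.8% of their lists. WT replicate 1 held 2 and WT replicate 2 held 4. Of these 6, 5 were downstream, within Tspoap1, at 38.8% to 90.1%. Regions called in 1 list alone made up 42.8% of all regions of the genome. By library these were 7.46% and 2.65% in DE replicates 1 and 2 and 20.7% and 12% in WT replicates 1 and 2. The region at 87763556 to 87764114 was called in DE replicates 1 and 2 and WT replicate 2. The last region on that side, 87764582 to 87764822, 7.66 kb downstream, was called in all 4 lists, at 47.2% and 83.1% in DE and 19.6% and 41.9% in WT.

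The 20 kb limit ran close to some peaks. The farthest member region lay 19.2 kb from Mir142, over the start of Supt4a, which encodes a transcription elongation factor subunit. It was called in all 5 lists, at 30.7% and 34.9% in DE, 14.6% and 7.83% in WT and 52.5% for H3K4me3. Just outside, the peaks at the start of Mrpl39, a mitochondrial ribosomal protein gene on the minus strand, began 21032 and 21044 bp from Mir155 in DE and 21027 and 21008 bp in WT. They stood at 17.4% and 31.5% in DE and at 11.6% and 1.85% in WT. Mpo, the myeloperoxidase gene, lies 36857 bp from Mir142, and its peaks are outside the window.

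Near Mir21a the peaks were fewer than near Mir142 and mostly weak. The region 2657 bp upstream of the hairpin, 86586815 to 86587238, lies within Vmp1, which is transcribed from the same strand and ends just past Mir21a. It was not called in DE replicate 1 and stood at 57.3% in DE replicate 2. In WT it stood at 11.1% in replicate 1 and 77.5% in replicate 2. It was also the region of Mir21a with an H3K4me3 peak, 140 bp wide at 63.4% of that list. Calls in 1 DE library and both WT libraries did not separate the genotypes, and places in lists of different lengths are not compared.

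On the other side, past the end of Vmp1, 3 regions were called. The one at 86581388 to 86581624 stood at 95.3% and 94.8% in DE, among the weakest peaks of those lists, and at 66.4% in WT replicate 2. WT replicate 1 had a peak of its own at 86581676 to 86581763, at 64.1%, with 51 bp between it and the DE peak. With intervals within 500 bp merged, both formed 1 region called in all 4 lists. The last, 86577283 to 86577501, was called in WT replicate 2 alone, at 79.9%.

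**Figure D3:**
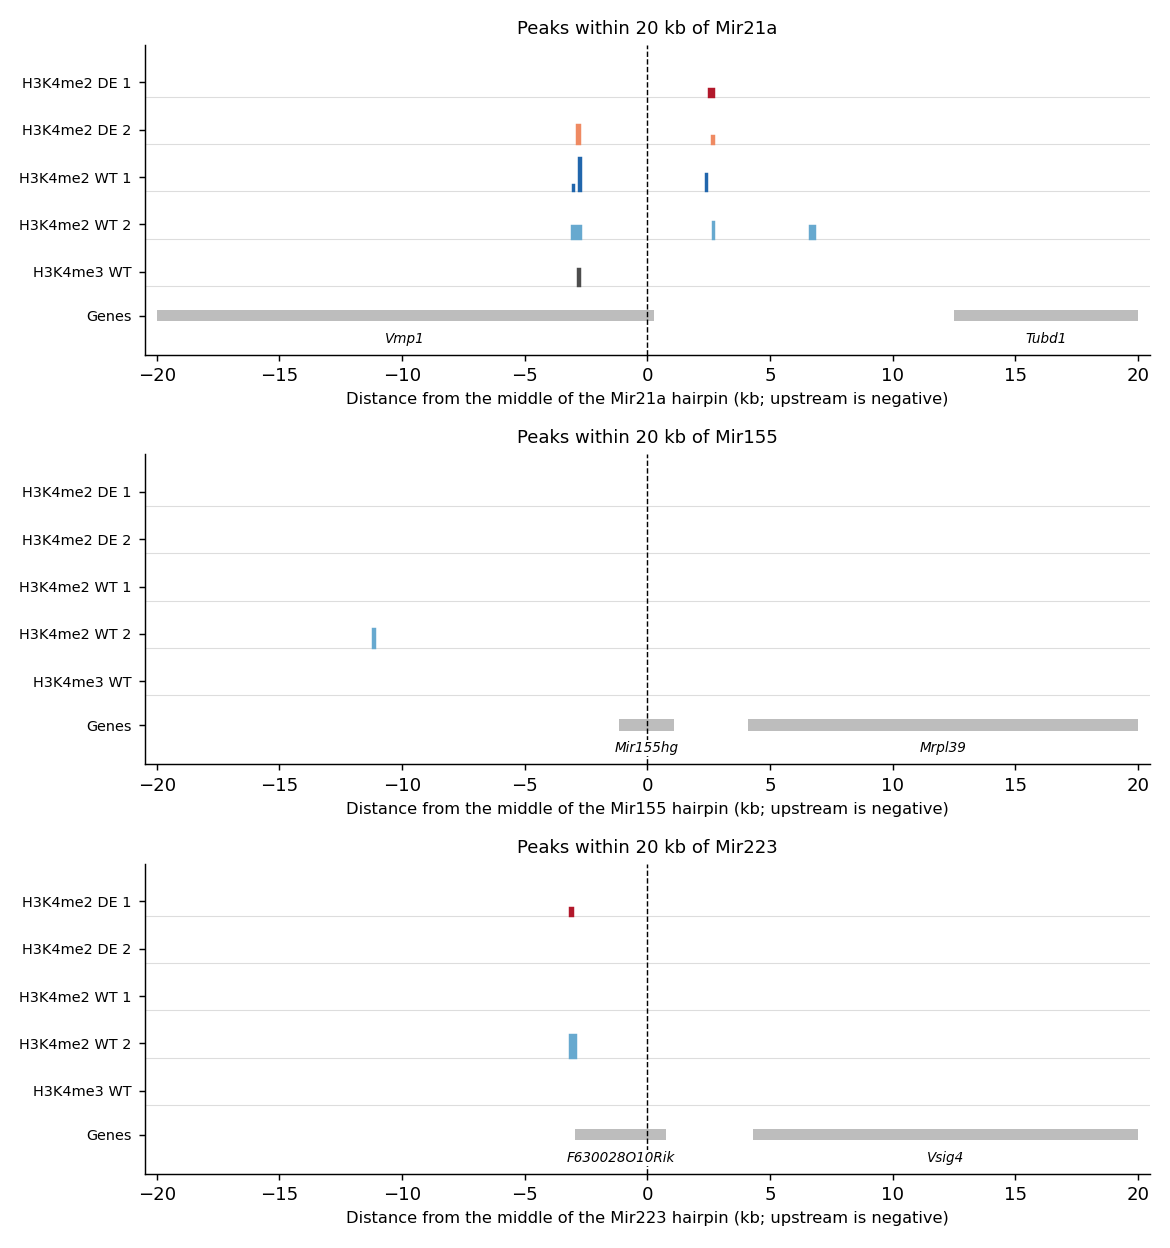
Peaks within 20 kb of Mir21a, Mir155 and Mir223 in each of the 5 lists, by distance from the middle of each hairpin in kb, drawn as for Mir142. Mir21a has calls on both sides, Mir155 a single call 11.1 kb upstream in WT replicate 2, and Mir223 calls about 2.9 kb upstream in DE replicate 1 and WT replicate 2.

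Mir155 had a single peak in its window. It lay 11083 bp upstream, at 84702927 to 84703057, outside any annotated gene, and was called in WT replicate 2 alone, at 57.2% of its list. No list had a peak over Mir155hg, the long noncoding host gene of Mir155 at 84713023 to 84715245. The lists hold only peaks past the caller's limit, so the lack of a call does not show that either mark was absent.

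Mir223 had 1 region, at the start of the long noncoding gene F630028O10Rik that spans it. The region, chrX:96239690-96239964, lies 2853 bp upstream of the hairpin. DE replicate 1 had a call at 95.3% of its list, with a −log10 p of 4.08, and DE replicate 2 had none. WT replicate 1 had none, and WT replicate 2 had a call at 45.5%, with a −log10 p of 12.2. Each genotype thus had 1 library with a call, and no H3K4me3 peak was called.

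The promoter window of F630028O10Rik almost coincides with this region, and that of Mir155hg, with no call, is given for contrast. Both are 300 bases of GRCm38.p6 from RefSeq on the plus strand, 250 before and 50 after the annotated start, at chrX:96239676-96239975 and chr16:84712773-84713072. The peaks of DE replicate 1 and WT replicate 2 covered 146 and 267 bases of the first. Capitals mark matches on either strand to GAGGAA, a core bound by ETS factors such as PU.1, and TTNNGNAA, a form of the C/EBP site.
F630028O10Rik: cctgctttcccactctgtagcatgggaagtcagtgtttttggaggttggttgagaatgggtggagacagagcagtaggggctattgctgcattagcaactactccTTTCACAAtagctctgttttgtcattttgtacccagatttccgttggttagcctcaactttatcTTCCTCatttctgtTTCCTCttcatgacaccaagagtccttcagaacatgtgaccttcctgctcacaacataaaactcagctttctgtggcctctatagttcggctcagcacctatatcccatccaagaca
Mir155hg: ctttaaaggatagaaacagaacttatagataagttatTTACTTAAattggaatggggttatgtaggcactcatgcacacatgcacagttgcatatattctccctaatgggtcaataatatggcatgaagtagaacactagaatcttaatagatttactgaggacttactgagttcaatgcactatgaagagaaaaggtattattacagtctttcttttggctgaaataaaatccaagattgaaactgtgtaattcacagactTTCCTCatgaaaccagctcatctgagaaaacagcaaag
GAGGAA matched at 2 places in the F630028O10Rik window and 1 in that of Mir155hg, and TTNNGNAA at 1 place in each, with no overlap between the 2 motifs. CAGGTG, the E-box that E proteins and ZEB2 bind, matched in neither. Of all 32851 promoter windows in the table, 28.3% held GAGGAA, 40.7% TTNNGNAA and 20.2% CAGGTG. These matches describe the letters and are not shown to be bound.

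Mir223 lies on X, and the labels do not give the sex of the mice. Peaks on X made up 3.21% and 2.78% of the DE lists and 3.37% and 2.99% of the WT lists. The part of sex in the Mir223 calls was not tested.

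The design sets cMoPs with the DE form of the Zeb2 enhancer against those with the WT form. Near the 4 microRNA genes the genotypes overlapped. DE replicates 1 and 2 had 13 called regions each, 13.0 ± 0 (SD, n = 2), and WT replicates 1 and 2 had 12 and 18, 15.0 ± 4.24 (SD, n = 2), a difference of −2 regions. By an exact permutation test, two-sided, p was 1, where 2 against 2 libraries cannot go below 0.333. The spread between the WT libraries was larger than the difference. In such bulk samples, fewer cells with a mark and less of it per cell cannot be told apart.

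Covered bases showed the same overlap. Peaks within the windows covered 3819 and 3459 bp in DE replicates 1 and 2 and 2458 and 4990 bp in WT replicates 1 and 2, averaging 3639 ± 255 bp in DE and 3724 ± 1790 bp in WT (SD, n = 2 each). DE minus WT, the mean log2 of the covered bases differed by 0.05, so that the sign depended on the scale, with DE lower by the mean in bp and higher by the mean of log2 values (exact two-sided permutation p = 1; both p-values were 1 after Benjamini-Hochberg adjustment over 2 tests). WT replicate 1, the longest list with the narrowest peaks (median 152 bp, against 249 and 246 bp in DE and 212 bp in WT replicate 2), had the fewest covered bases near these genes. Over the autosomes and X, peaks covered 6751474 and 5057224 bp in DE and 6235456 and 7386366 bp in WT, with DE replicate 2 lowest. There, DE over WT was −0.22 on the log2 scale. Near these genes the direction on the log2 scale turned without WT replicate 1 (−0.46) and without DE replicate 1 (−0.02). For the number of regions, the difference was 0 without WT replicate 2. With lists of equal length, DE libraries averaged 11.5 regions and WT libraries 11, so the direction of that difference turned as well.

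**Figure D4:**
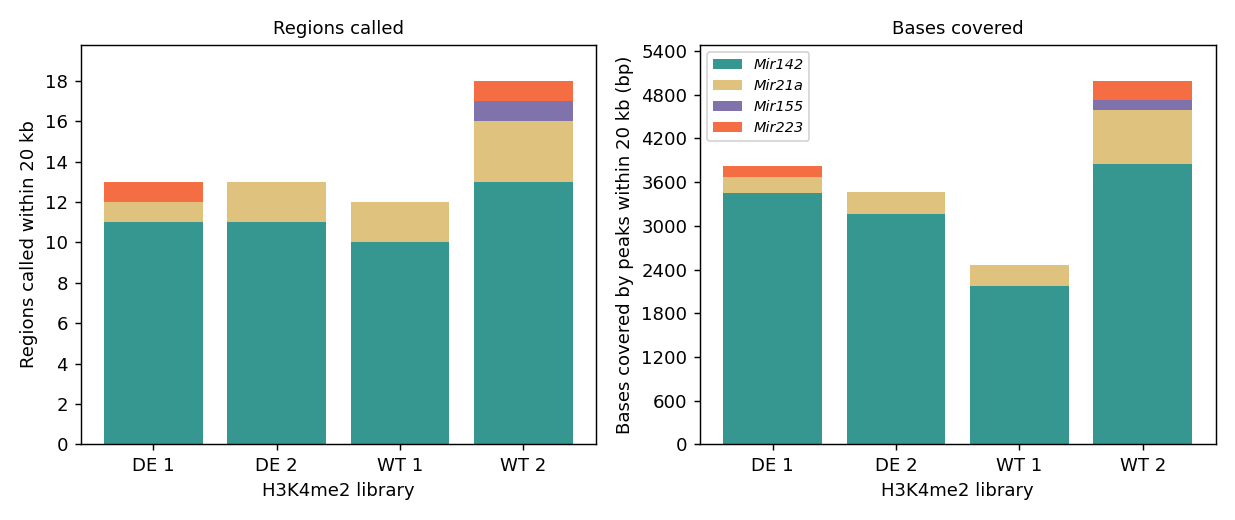
Number of regions called (left) and bases covered by peaks in bp (right) within 20 kb of the 4 microRNA genes, stacked by gene, for each H3K4me2 library. The DE libraries, with 13 regions each, lie between the WT libraries, with 12 and 18, and Mir142 makes up most of every bar.

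No region near these genes was called in both WT libraries and neither DE library, a pattern that 8.79% of all 40931 regions of the genome showed. The count is of 24 regions at 4 places, most of them at 1 gene, and is not independent evidence. A single region, 87762228 to 87762656 in Tspoap1, 5301 bp downstream of Mir142, was called in both DE libraries, at 52.4% and 60.0% of their lists, and in neither WT library. This pattern was found in 1.11% of all regions. The nearest WT peak had 751 bp between it and the region. The call ended with a −log10 q of at least 5, where no region had this pattern.

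Regions called in all 4 H3K4me2 lists came from 1 gene. All 8 were at Mir142, of 24 member regions, near the share of 29.7% over all regions. With intervals within 500 bp merged, Mir142 had 6 such regions and Mir21a had 1. Of the 9 member regions called in both WT libraries, 6 had an H3K4me3 peak, 5 at Mir142 and 1 at Mir21a, where 27.9% of all such regions of the genome had one.

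**Figure D5:**
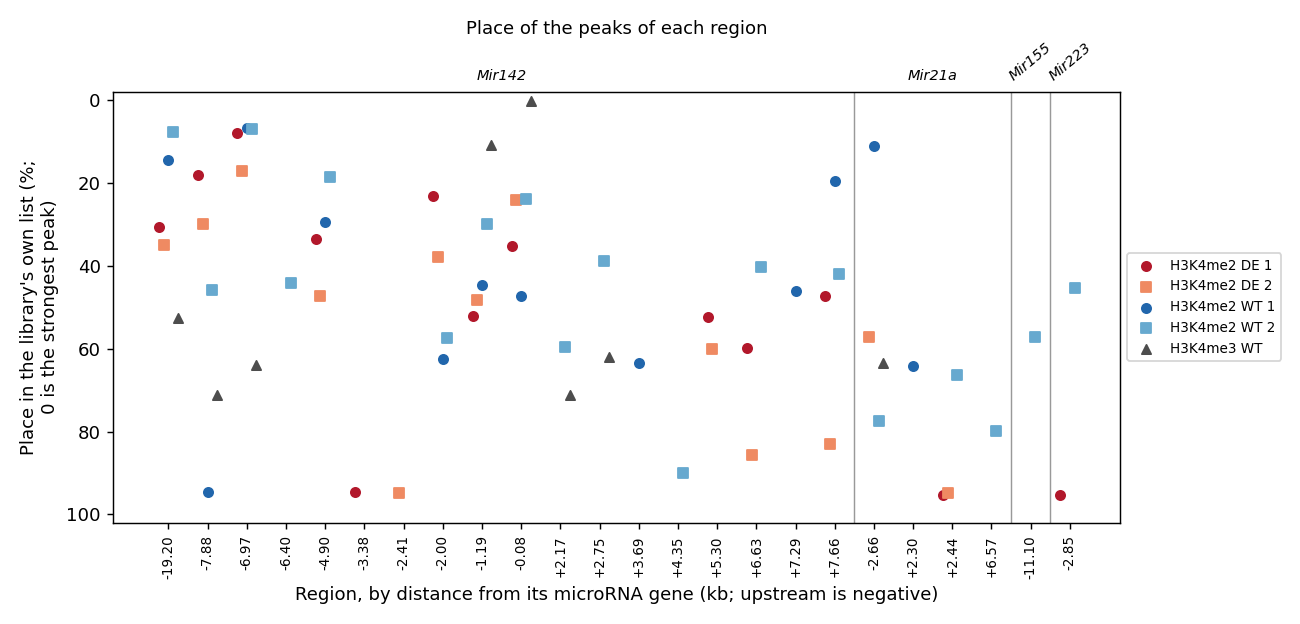
Place of each region's strongest peak within its library's own list (vertical axis in %, with 0 for the strongest peak) for the 24 regions, by distance from their microRNA gene in kb. The H3K4me3 point at the top stands for the Mir142 hairpin, at 0.327%. Near the bottom, at 94.7% to 95.3%, stand DE peaks at Mir142, at Mir223 and past the end of Vmp1. A WT replicate 1 peak at Mir142 stands there too, at 94.5%.

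By the place of the strongest peak in each of the 5 lists, the microRNA genes most like Mir142 were Mir324, Mir7067 and Mir6418, at distances of 0.691, 0.782 and 0.975 on the log10 scale among 265 candidates. Mir324 stood at 7.84% and 5.10% in DE, 5.07% and 2.67% in WT and 0.288% for H3K4me3, against 8.07% and 17.2%, 6.75% and 7.08%, and 0.327% at Mir142. Those most like Mir21a were Mir7115, Mir1946b and Mirlet7i, at 0.343, 0.420 and 0.462. Mir155 and Mir223 lacked a peak in some H3K4me2 lists, and no likeness was computed.

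Other microRNA genes of blood cells mostly had an H3K4me2 peak within 20 kb, and few had an H3K4me3 peak. Of 38 listed, 32 and 31 had a peak in DE and 34 and 32 in WT, 31 in all 4 lists and 5 with H3K4me3. Clustered genes among the 38 share their windows, so these are not counts of independent loci. The share over all microRNA genes was 45.7% and 40.5% in DE, 49.4% and 47.3% in WT, 38.9% in all 4 lists and 22.9% for H3K4me3. Mir146a, a brake on inflammatory signalling, had a peak in both WT lists and in neither DE list, a pattern of 2.85% of all microRNA genes. Mir29a and Mir29b-1, which share a cluster, had one in WT replicate 1 alone and Mir125b-2 in DE replicate 1 alone. Mir125b-1 and the clustered Mir181a-1 and Mir181b-1, known from stem and lymphoid cells, had none.

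The machinery that makes and uses microRNAs was called in large part. Of 14 genes, 11 in each DE list and 10 and 12 in the WT lists had a peak within 1 kb of a gene end, where 45.3% and 40.7% of protein-coding genes had one in DE and 48.6% and 49.7% in WT. The nuclease genes Drosha and Dicer1, Dgcr8, Xpo5, which exports the hairpin, and the Argonaute genes Ago1 and Ago2 were called in all 4 H3K4me2 lists. Ago3 and Tnrc6a were called in none. Ran lacked a call in DE replicate 2, Tarbp2 in WT replicate 1, and Ago4 in DE replicate 1 and WT replicate 1.

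Reported targets and regulators were read against the 38.1% of protein-coding genes called in all 4 H3K4me2 lists. All 4 listed targets of miR-142 and all 5 of miR-155 were called in all 4 H3K4me2 lists, as were 5 of 6 for miR-21, with Pdcd4, an inhibitor of translation, called in none. Of 6 targets of miR-223, Igf1r and E2f1 were called in all 4 lists and Mef2c, Nfia and Lmo2 in none, and Nlrp3, an inflammasome sensor, was called in DE replicate 1 and WT replicate 2. Of 11 regulators reported to act on these microRNA genes, 10 were called in each DE list and 10 and 11 in the WT lists. In all, 8 of the 11 were called in all 4 lists. Spi1, the PU.1 gene, Cebpa and Cebpb were called in all 4, Cebpe lacked a call in WT replicate 1, Runx1 in DE replicate 1 and Nfkb1 in DE replicate 2. None of these targets and regulators had calls in both DE libraries and no WT library, or the reverse. The share of all protein-coding genes with these patterns was not counted, so this has no background to be read against.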

How the data were processed

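CUTAC libraries of 100000 cells each came from a CUT&Tag kit, per the labels' protocols. Per the submitters' processing notes, the build was mm10 and the tools were MACS2 (version 2.2.9.1), Picard, Bowtie2, Trimmomatic and SAMtools. Their settings, and whether a control was used, are not stated there. The authors' lists, 1 per library, hold a score (the whole part of the −log10 q times 10, up to rounding), the fold of pileup over background, the −log10 p and −log10 q of each summit and the summit's offset, all as deposited. The lowest −log10 q in the 5 lists was 1.00 to 1.02. One header disagrees: that of DE replicate 1 gives DE-2, and the series' record was followed.

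Summits of 1 interval were counted once, by the strongest p, and ties in p share a mean place. Regions were built on the 19 autosomes and X. Genes, microRNAs and promoters came from RefSeq tables of GRCm38.p6, the mm10 build, with no exons. Mir146a was matched by a synonym. Libraries were compared by exact permutation tests. Members and lists were chosen with earlier results of these data known, and the text names genes in the order listed. The regions of Mir142 called in 1 H3K4me2 list alone are counted and not named one by one. Alternatives were 50% cover, merging within 500 bp, windows of 10 and 50 kb, a minimum −log10 q of 5, the strongest 17079 peaks of every list, single replicates left out and a replicate block. Same-numbered libraries were not paired by any label. Code was tested on simulated data (Python 3.11.15, NumPy 2.4.6, SciPy 1.17.1).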

Additional observations from a re-analysis of the deposited data

Results flagged for a closer look

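Peaks on the Y chromosome, which no comparison used, numbered 26 and 20 in DE replicates 1 and 2 and 46 and 29 in WT replicates 1 and 2 for H3K4me2. The H3K4me3 list of WT held 1. No control list was analysed here, so the counts have no background to be read against, and they are given because Mir223 lies on X. Their bearing on the Mir223 calls was not tested.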

How the results depend on the processing

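The count of regions per library, DE minus WT, was −2 and turned to 0.5 with lists of equal length; a minimum −log10 q of 5 gave −4.5 (exact p = 0.667), and leaving out a replicate gave −5 to 0. The covered bases, 0.05 on the log2 scale, turned to −0.44 with that minimum and to −0.78 without Mir142, and were −0.46 to 0.56 without single replicates. No exact p was under 0.333. The 0 regions with calls in both WT libraries alone stayed 0 under every other planned setting and were 0 to 6 without single replicates, when the pattern was read from 3 libraries. The 1 region with calls in both DE libraries alone became 0 with that minimum or without Mir142 and 2 with 50% cover, and was 1 to 3 without single replicates. The 8 regions called in all 4 libraries became 4, 5 and 17 with that minimum, 50% cover and a 50 kb window, and 0 without Mir142. The 6 regions with H3K4me3 became 3, 3, 12 and 1 in the same order. The cause of these moves was not tested. The 50 kb window takes in, among others, the peaks of Mpo, those at the start of Mrpl39 and those at Rps6kb1, 39.1 kb from Mir21a. Leaving out Mir142 was chosen after seeing the data. Cover and merging cannot change covered bases and were not run for them. Same-numbered deviations correlated at −0.0476 over 40931 regions. With 2 libraries a genotype, this value cannot show whether same-numbered libraries were prepared together. With the replicate block the differences were −2 and 0.05, with exact p = 1 (smallest possible 0.5). Peak lists without read totals limit what can be seen of weak marks.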
